A study of Mus musculus with 12 samples.

Results

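A set of 10 keratin genes that mark the layers of the epidermis was followed in bulk RNA-seq of mouse back skin: *Krt5*, *Krt14*, *Krt15*, *Krt1*, *Krt10*, *Krt2*, *Krt77*, *Krt78*, *Krt79* and *Krt80*. They were chosen by name, as the keratins of the basal layer and of the layers above it, and make up 10 of the 56923 genes in the deposited table of counts. All 10 were tested, *Krt2* with enough reads in the control mice only. The skin came from 12 female mice aged 8 to 10 weeks on a C57BL/6 background, in 4 groups of 3: wild-type (WT) littermates and mice whose sample titles read LCN2 KO, each given either imiquimod (IMQ) or vehicle cream on the shaved back. The study used these groups to ask how a knockout of *Lcn2*, which encodes the secreted protein lipocalin 2, changes the psoriasis-like skin that IMQ produces. The IMQ groups received 5% IMQ cream for 6 days and the control groups Vaseline, although the sample labels give the treatment of the controls as none. The genotype field of the labels calls the second line an LCN2 knockdown and the study calls it *Lcn2*-/-, and its mice are named here by their titles. The *Lcn2*-/- line was bought from a supplier, and no allele limited to a cell type is named in the sources used here.

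*Lcn2* reads were counted in every library labelled LCN2 KO, with 320, 173 and 357 counts without IMQ and 561, 511 and 830 counts with it. The WT libraries held 136, 201 and 86 counts without IMQ and 1010, 2723 and 1572 counts with it. Reads of the gene were thus present in a line described as a knockout, and a count does not show which exons were covered. Library totals lay between 16448226 and 28592110 counts. The deposited extraction text speaks of another tissue, the retina, but 8 photoreceptor genes together reached 0.47 to 3.03 CPM (read counts scaled to a common library size) and the epidermal keratins were abundant in every library. Whole skin was measured, so fewer cells of a type and less RNA per cell cannot be told apart.

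Keratins build the intermediate filaments of epithelial cells, and each filament pairs a type I with a type II keratin. *Krt5* (type II) and *Krt14* (type I) form the filaments of the dividing basal layer, and *Krt1* (type II) and *Krt10* (type I) replace them when cells leave that layer to differentiate. *Krt15* belongs to resting basal cells and to the bulge of the hair follicle, *Krt2* to the upper layers of ear, tail and sole skin, and *Krt79* to the canal of the upper hair follicle and sebaceous duct. *Krt77* and *Krt78* are type II keratins of the layers above the basal one, and *Krt80* is a type II keratin found near the cell borders of differentiating cells. The type I genes lie in one cluster on chromosome 11 and the type II genes in another on chromosome 15.

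The sequences just before the start of 4 of these genes are shown because the genes differ in direction after IMQ: *Krt5* and *Krt10* rose, *Krt77* fell, and *Krt79* passed the test, as lower, in 1 genotype only. RefSeq promoters (GRCm38.p6) were matched for 7 of the 10 keratins, all but *Krt1*, *Krt15* and *Krt80*, and 6 of the 7 began within 10 bases of the gene start in GENCODE M21, while that of *Krt14* lay inside the gene. Each sequence below runs over the 250 bases before the start, 5′ to 3′ on the minus strand, at chr15:101712906-101713155 for *Krt5*, chr11:99389365-99389614 for *Krt10*, chr15:101869706-101869955 for *Krt77* and chr15:101940325-101940574 for *Krt79*. Capitals mark matches, on either strand and with overlaps joined, to TATAAA (the TATA box), TGANTCA (AP-1), GCCNNNGGC (AP-2), CCNCNCCC (the KLF and Sp factors) or TTNNGNAA (C/EBP).
Krt5: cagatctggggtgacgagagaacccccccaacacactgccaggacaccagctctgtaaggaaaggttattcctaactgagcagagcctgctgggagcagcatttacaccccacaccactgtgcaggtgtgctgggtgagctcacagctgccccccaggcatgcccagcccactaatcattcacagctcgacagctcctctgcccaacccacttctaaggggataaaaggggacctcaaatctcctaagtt
Krt10: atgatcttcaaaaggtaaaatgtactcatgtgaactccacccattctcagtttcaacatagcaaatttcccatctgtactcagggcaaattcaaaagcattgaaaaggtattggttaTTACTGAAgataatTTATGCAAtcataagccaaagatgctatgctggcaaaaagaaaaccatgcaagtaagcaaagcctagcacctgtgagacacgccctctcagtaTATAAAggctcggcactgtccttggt
Krt77: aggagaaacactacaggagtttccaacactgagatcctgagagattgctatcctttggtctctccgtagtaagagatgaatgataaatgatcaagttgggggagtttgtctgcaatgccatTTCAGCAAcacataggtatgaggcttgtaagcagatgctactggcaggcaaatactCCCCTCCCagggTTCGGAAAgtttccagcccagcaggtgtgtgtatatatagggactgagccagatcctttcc
Krt79: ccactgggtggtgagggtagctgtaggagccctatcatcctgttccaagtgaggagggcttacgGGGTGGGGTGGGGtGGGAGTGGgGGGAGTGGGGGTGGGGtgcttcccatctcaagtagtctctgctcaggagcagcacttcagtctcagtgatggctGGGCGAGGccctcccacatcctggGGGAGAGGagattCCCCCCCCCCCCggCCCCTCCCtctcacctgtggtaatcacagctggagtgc
The window of *Krt10* held a TATAAA 26 bases before the start and C/EBP matches at 133 and 119 bases, and that of *Krt77* held a KLF and Sp match at 73 bases and C/EBP matches at 129 and 61 bases. The window of *Krt79* held 14 KLF and Sp matches, many of them overlapping in runs of G or C, and that of *Krt5* held none of the 5 motifs. Of the matched windows not shown, that of *Krt78*, which rose, held a KLF and Sp match at 37 bases. That of *Krt2*, which fell, held a KLF and Sp match at 63 bases and a C/EBP match at 230 bases. The window inside *Krt14*, which rose, held C/EBP matches at 236 and 110 bases. Among 32536 mouse promoters of the same length, 12.3% held TATAAA, 6.73% the AP-1 letters, 13.8% the AP-2 letters, 46.2% the KLF and Sp letters and 36.8% the C/EBP letters. These are matches of letters only, and no binding was measured.

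After IMQ, 8 of the 10 keratins changed in WT skin and 9 of 10 in skin labelled LCN2 KO, and not all in one direction. *Krt5*, *Krt14*, *Krt1*, *Krt10* and *Krt78* rose in both genotypes, *Krt15*, *Krt2* and *Krt77* fell in both, *Krt79* fell with the test passed in the mice labelled LCN2 KO, and *Krt80* passed the test in neither. A change was called with a Benjamini-Hochberg adjusted p under 0.05 over all 18529 genes tested, from edgeR's quasi-likelihood test on the counts. By that rule 14.2% of all genes tested were higher and 14.3% lower in WT skin, against 5 and 3 of the 10 keratins, and 14.1% were higher and 11.2% lower in skin labelled LCN2 KO, against 5 and 4 of the 10. The split of all genes depends on the scaling of the libraries, since with total counts and no scaling factor 1831 of 6053 genes called in WT were higher and 1848 of 6174 in the other genotype, and with upper quartile scaling 2151 of 5658 and 2204 of 5029. The total counts moved the median log2 fold change of all genes from -0.02 to -0.19 in WT and from -0.05 to -0.25 in the mice labelled LCN2 KO. The keratins called kept their direction and their call under these scalings. In WT skin 5 keratins were higher and 3 lower with no overlap between the IMQ and control mice, against 20.1% and 20.6% of all genes, and in skin labelled LCN2 KO 5 were higher and 5 lower without overlap, against 23.1% and 22.8%. Each count of lower keratins in this paragraph includes *Krt2*, which passed the filter on low counts only through the control mice. The median log2 fold change of the 10 keratins was 0.75 in WT and 0.30 in the mice labelled LCN2 KO, and these medians were the same with *Krt2*, which was at or near 0 after IMQ, set to the bound given below.

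**Figure D1:**
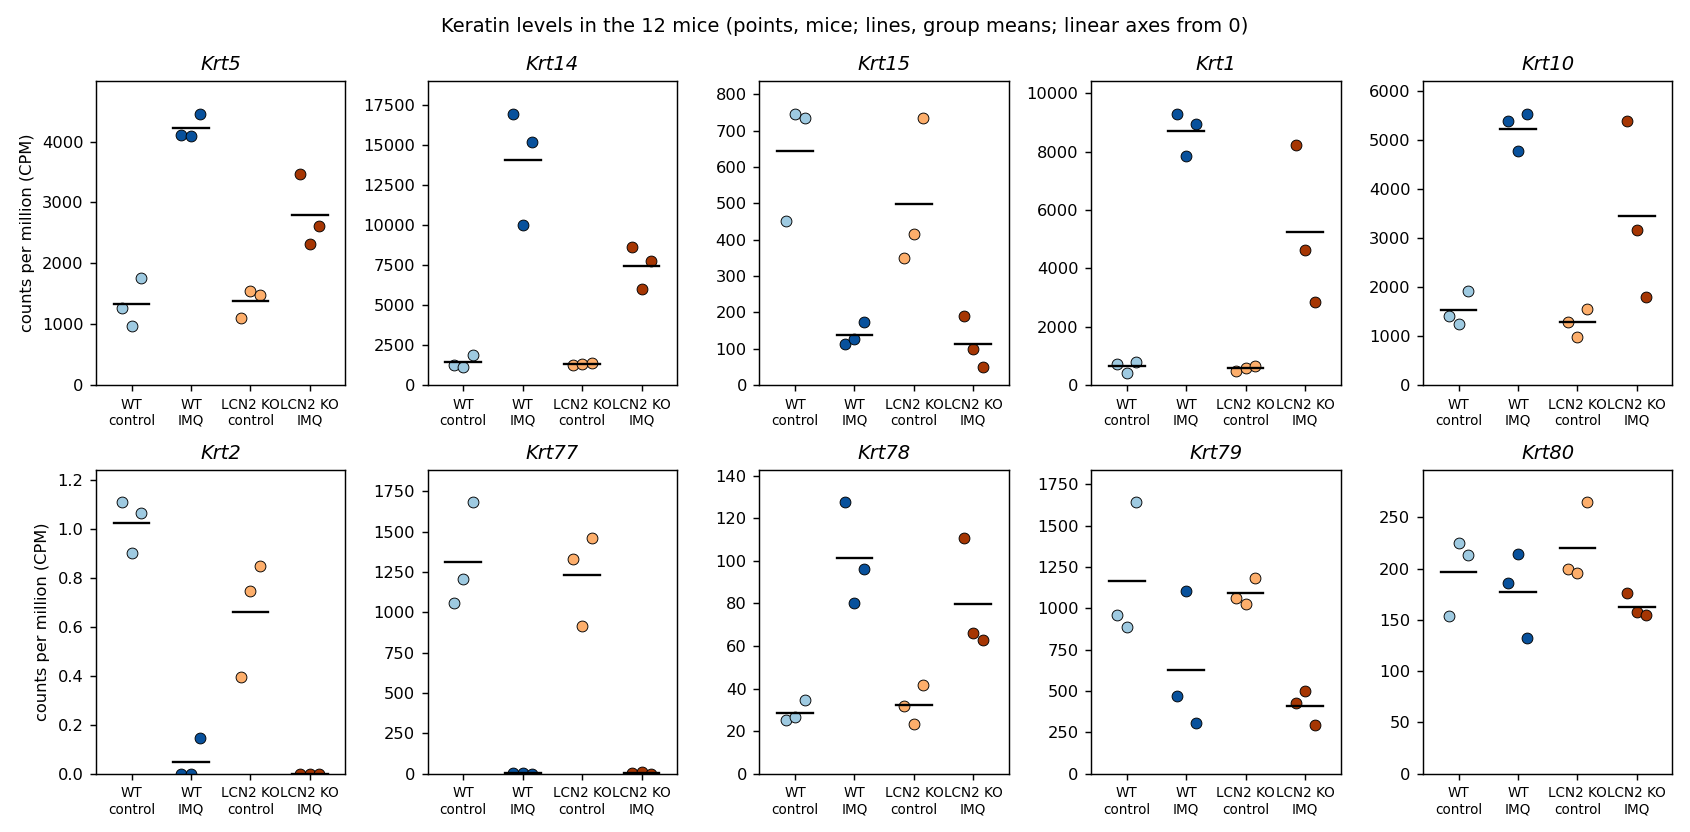
Level of each keratin in CPM in the 12 mice, one panel per gene on a linear axis from 0, with a point per mouse and a line at the mean of each group of 3. *Krt5*, *Krt14*, *Krt1*, *Krt10* and *Krt78* lie higher in all IMQ mice than in any control of their genotype, and *Krt77* and *Krt2* drop to the base of the axis.

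Of the basal pair, *Krt14* (chr11:100203162-100207548, GRCm38, as for all positions here) was at 1245, 1154 and 1879 CPM in WT control mice and at 16988, 10042 and 15224 CPM in WT IMQ mice. Skin labelled LCN2 KO was at 1254, 1341 and 1372 CPM without IMQ and at 8613, 6027 and 7749 CPM with it. Every IMQ mouse was above every control mouse, and the IMQ mice labelled LCN2 KO were all below the WT IMQ mice. The rise was 9.88-fold in WT (log2 fold change 3.30, SE 0.26, adjusted p = 6.4e-06, edgeR) and 5.64-fold in the mice labelled LCN2 KO (2.50, SE 0.25, adjusted p = 7.36e-05, edgeR). Its partner *Krt5* (chr15:101707070-101712898) was at 1273, 978 and 1752 CPM in WT control mice and at 4114, 4089 and 4461 CPM in WT IMQ mice. It was at 1107, 1547 and 1473 CPM in control mice labelled LCN2 KO and at 3472, 2313 and 2620 CPM in IMQ mice labelled LCN2 KO. The groups again did not overlap between IMQ and control, but the rise was smaller, 3.16-fold in WT (log2 fold change 1.66, SE 0.23, adjusted p = 0.000362, edgeR) and 2.04-fold in the mice labelled LCN2 KO (1.03, SE 0.23, adjusted p = 0.00756, edgeR). Reads can be shared among near copies of these genes: of the 75-base words in the transcripts of *Krt14*, 5.71% also occur in *Krt16*, and 7.77% of those of *Krt5* in other genes, *Krt6a* and *Krt6b* among them. *Krt16*, *Krt6a* and *Krt6b*, the keratins of wounded and psoriatic epidermis, rose with log2 fold changes of 7.92, 6.39 and 9.27 in WT, and the part of shared reads in the rise of *Krt14* and *Krt5* was not tested.

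*Krt15* (chr11:100131758-100135928), the third basal keratin, went the other way. It was at 450, 746 and 736 CPM in WT control mice and at 112, 126 and 174 CPM in WT IMQ mice. Skin labelled LCN2 KO was at 348, 414 and 733 CPM without IMQ and at 191, 100 and 50.4 CPM with it. All IMQ mice were below all controls, and the level in the IMQ mice labelled LCN2 KO spread on both sides of that in the WT IMQ mice. The fall was 4.68-fold in WT (log2 fold change -2.23, SE 0.44, adjusted p = 0.00355, edgeR) and 4.38-fold in the mice labelled LCN2 KO (-2.13, SE 0.44, adjusted p = 0.00562, edgeR). With a mouse left out, the log2 fold change in that genotype ran from -2.73, without IMQ mouse 1, to -1.75, with adjusted p of at most 0.0282 (edgeR). Markers of hair follicle stem cells, a population that also makes *Krt15*, moved with it: of 7 listed genes, 5 fell in WT (3 with no filter on low counts) and 4 fell with 1 risen in the mice labelled LCN2 KO, and their summed level went from 685 to 1064 CPM in WT control mice to 331 to 408 CPM in WT IMQ mice. In the other genotype the sum went from 644 to 728 CPM to 484 to 592 CPM. *Lhx2* and *Lgr5*, defining genes of that population, had log2 fold changes of -2.89 and -1.86 in WT. Their part in the fall of *Krt15* was not tested.

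Of the suprabasal pair, *Krt1* (chr15:101845426-101850794) was at 725, 413 and 773 CPM in WT control mice and at 9302, 7863 and 8939 CPM in WT IMQ mice. In the mice labelled LCN2 KO, it was at 492, 571 and 658 CPM without IMQ and at 8230, 4612 and 2853 CPM with it. The WT IMQ mice lay close together, whereas the highest of the IMQ mice labelled LCN2 KO reached the WT range and the lowest did not come near it, so that these groups overlap. The rise was 13.7-fold in WT (log2 fold change 3.77, SE 0.37, adjusted p = 3.54e-05, edgeR) and 9.13-fold in the mice labelled LCN2 KO (3.19, SE 0.37, adjusted p = 0.000183, edgeR). *Krt10* (chr11:99385254-99389364) was at 1419, 1256 and 1920 CPM in WT control mice and at 5386, 4771 and 5541 CPM in WT IMQ mice. It was at 1291, 990 and 1551 CPM in control mice labelled LCN2 KO and at 5396, 3164 and 1802 CPM in IMQ mice labelled LCN2 KO. The order of these last 3 mice is that seen for *Krt1*, and their coefficient of variation, 52.5% for *Krt10* and 52.4% for *Krt1*, was larger than that of the WT IMQ mice, 7.79% and 8.60%. The rise of *Krt10* was 3.42-fold in WT (log2 fold change 1.77, SE 0.34, adjusted p = 0.00267, edgeR) and 2.70-fold in the mice labelled LCN2 KO (1.43, SE 0.33, adjusted p = 0.00984, edgeR). An antisense gene, *Gm11940*, shares exon bases with *Krt10* and had at most 92 counts, against at least 18575 for *Krt10*.

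*Krt2* (chr15:101810689-101818169), a keratin of later differentiation, was scarce even in control skin. It had 24, 21 and 20 counts in WT control mice and 0, 0 and 3 in WT IMQ mice. In the mice labelled LCN2 KO it had 12, 14 and 19 counts without IMQ and 0 in all 3 mice with it. The IMQ mice were below the controls in both genotypes, and the test was passed in both (adjusted p = 0.00647 in WT and 0.00526 in the mice labelled LCN2 KO, edgeR). *Krt2* passed the filter on low counts only through the control mice, where it is higher. Its test therefore adds no support beyond the counts themselves. With 3 counts per library as the floor, which covers counting error only, *Krt2* was at least 5.82-fold lower in WT and at least 3.69-fold lower in the mice labelled LCN2 KO.

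*Krt77* (chr15:101858731-101869705) had the largest log2 fold change of these keratins in both genotypes. It was an abundant keratin of control skin, at 1055, 1207 and 1681 CPM in WT and at 1327, 913 and 1461 CPM in the mice labelled LCN2 KO. After IMQ it was at 3.09, 6.12 and 0.87 CPM in WT and at 4.27, 7.66 and 1.20 CPM in the mice labelled LCN2 KO. In counts, at least 17137 reads in each control library compared with 18 to 131 reads in each IMQ library, so the remaining level was still above the floor of 3 counts. It was 399.95-fold lower in WT (log2 fold change -8.64, SE 0.78, adjusted p = 1.95e-05, edgeR) and 281-fold lower in the mice labelled LCN2 KO (-8.13, SE 0.76, adjusted p = 5.27e-05, edgeR). Single mice moved the size of the fall: the log2 fold change was -9.41 without WT IMQ mouse 2 and -8.82 without IMQ mouse 2 labelled LCN2 KO, and -8.16 and -7.69 without mouse 3 of these groups. No 75-base word of its transcripts occurs in another gene. Markers of sebocytes, the lipid-filled cells of the sebaceous gland, fell beside it: 9 of 10 listed genes fell in WT and 6 of 10 in the mice labelled LCN2 KO. Without WT IMQ mouse 1, or with no filter on low counts, 4 fell in WT, and without IMQ mouse 1 or 3 labelled LCN2 KO, or with no filter, 3 fell in that genotype. Their summed level went from 5119 to 8754 CPM in WT control mice to 1375 to 4053 CPM in WT IMQ mice, and in the other genotype from 7447 to 10930 CPM to 1761 to 4443 CPM. The median log2 fold change of the 10 listed genes was -2.46 in WT and -1.98 in the mice labelled LCN2 KO. *Scd3*, a fatty acid desaturase of these cells, fell further than that median, with a log2 fold change of -6.34 in WT. It averaged 592 ± 141 CPM (SD, n = 3) in WT control mice, and 7.39 ± 7.81 CPM was left after IMQ. The part of the glands in the fall of *Krt77* was not tested.

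*Krt78* (chr15:101946001-101954287) was a low-level keratin that rose. It was at 25.1, 26.5 and 34.5 CPM in WT control mice and at 127, 80.3 and 96.2 CPM in WT IMQ mice. It was at 31.7, 23.3 and 41.4 CPM in control mice labelled LCN2 KO and at 111, 66.1 and 62.9 CPM in IMQ mice labelled LCN2 KO. All IMQ mice were above all controls, and the IMQ groups overlap. The rise was 3.53-fold in WT (log2 fold change 1.82, SE 0.27, adjusted p = 0.000658, edgeR) and 2.48-fold in the mice labelled LCN2 KO (1.31, SE 0.27, adjusted p = 0.00538, edgeR).

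*Krt79* (chr15:101929332-101940324), the keratin of the follicle canal, was at 962, 888 and 1641 CPM in WT control mice and at 469, 1103 and 307 CPM in WT IMQ mice. Skin labelled LCN2 KO was at 1065, 1027 and 1185 CPM without IMQ and at 425, 502 and 294 CPM with it. WT IMQ mouse 2 lay within the range of the WT controls, while the IMQ and control mice labelled LCN2 KO did not overlap. The log2 fold change was -0.89 in WT (SE 0.41, adjusted p = 0.121, edgeR) and -1.42 in the mice labelled LCN2 KO (SE 0.41, adjusted p = 0.0264, edgeR). Without WT IMQ mouse 2 the WT value was -1.59, with an adjusted p of 0.00422 from edgeR. The call in the mice labelled LCN2 KO was lost without control mouse 3, IMQ mouse 1 or IMQ mouse 3 of that genotype and with no filter on low counts, with adjusted p from 0.0697 to 0.105 (edgeR). The sebocyte markers described for *Krt77* fell in the same comparisons, and their part in the level of *Krt79* was not tested.

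*Krt80* (chr15:101347444-101370162) stayed within a narrow range. It was at 153, 225 and 213 CPM in WT control mice and at 185, 214 and 133 CPM in WT IMQ mice. It was at 200, 196 and 265 CPM in control mice labelled LCN2 KO and at 176, 158 and 155 CPM in IMQ mice labelled LCN2 KO. The WT groups overlap, and the mice labelled LCN2 KO were lower with IMQ without overlap. The log2 fold change was -0.15 in WT (SE 0.20, adjusted p = 0.597, edgeR) and -0.44 in the mice labelled LCN2 KO (SE 0.20, adjusted p = 0.123, edgeR), where total counts with no scaling factor gave -0.64 with an adjusted p of 0.0226. The antisense gene *Gm35853* shares exon bases with *Krt80* and had at most 90 counts, against at least 2581 for *Krt80*.

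**Figure D2:**
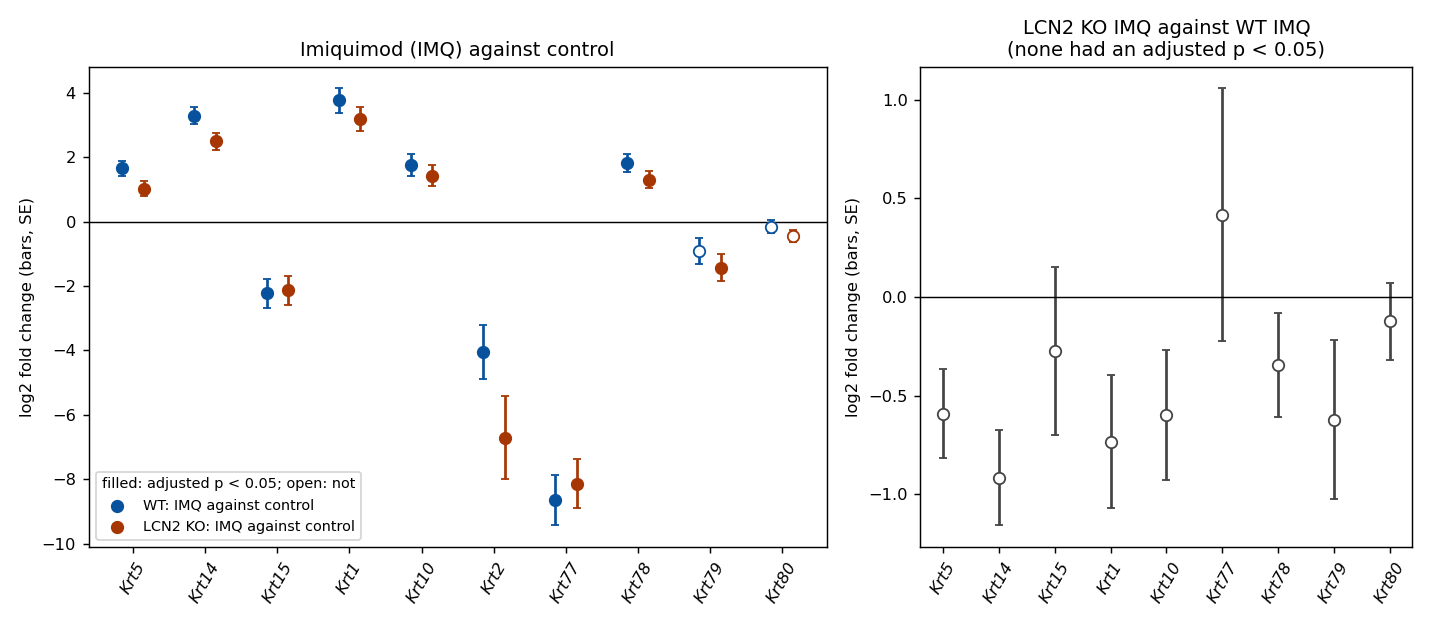
Log2 fold change of each keratin with its SE, on the left for IMQ against control in WT (blue) and in mice labelled LCN2 KO (brown), on the right for IMQ mice labelled LCN2 KO against WT IMQ mice, where *Krt2* is left out because both groups were at or under 3 counts per library. Filled points had an adjusted p under 0.05, and the fitted size for *Krt2* on the left depends on the prior count.

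Since partners form one filament, ratios of counts between 2 keratins of the same mouse were compared next, which removes the scaling of the library. They were tested with an exact permutation test that exchanged treatment within genotype (two-sided, 400 rearrangements, smallest possible p 0.005) and adjusted over 7 ratios. All 7 ratios differed between IMQ and control mice with p = 0.005 and adjusted p = 0.005 in this exact test, and for all 7 the IMQ and control values did not overlap in either genotype. Of these, *Krt15*/*Krt14*, *Krt2*/*Krt1* and *Krt77*/*Krt1* set a keratin that fell without overlap against a keratin that rose without overlap. Their separation and p therefore followed from the levels given above and add no further support. The basal partners did not rise in step: the ratio of *Krt14* to *Krt5* lay between 0.867 and 1.18 in the 6 control mice and between 2.46 and 4.13 in the 6 IMQ mice, a mean log2 difference of 1.53. The suprabasal partners shifted towards *Krt1*: the ratio of *Krt10* to *Krt1* lay between 1.73 and 3.04 in the control mice and between 0.579 and 0.686 in the IMQ mice, a mean log2 difference of -1.89. This ratio varied less among the IMQ mice labelled LCN2 KO, at 0.656, 0.686 and 0.632, than their levels of *Krt1* or *Krt10* did, and was above the 0.579, 0.607 and 0.620 of the WT IMQ mice in all 3. The log2 difference between these IMQ groups was 0.13, in 1 of 7 ratios. Over both treatments the genotype difference of this ratio was -0.013 (p = 0.92, exact permutation test with genotype exchanged within treatment).

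Across layers, the ratio of *Krt1* to *Krt5* went from between 0.369 and 0.569 in the control mice to between 1.09 and 2.37 in the IMQ mice, a log2 difference of 2.08. The ratio of *Krt10* to *Krt14*, the type I keratins of the same layers, moved in the opposite direction, from between 0.738 and 1.14 to between 0.233 and 0.627, a log2 difference of -1.34. Suprabasal relative to basal keratin was therefore higher by the type II pair and lower by the type I pair. The log2 difference was -5.13 for *Krt15* relative to *Krt14* and -12.2 for *Krt77* relative to *Krt1*. For *Krt2*, at 0 counts in 5 of the 6 IMQ libraries, only a bound can be given: with 3 counts as the floor in each IMQ library, the mean log2 difference relative to *Krt1* was -5.62 or lower. Between the genotypes the mean log2 differences of the 6 ratios without *Krt2* lay between -0.22 and 0.65. That of *Krt2* relative to *Krt1* was -0.30 with 0.5 added to the counts and 0.20 with 10 added, so its sign is set by what is added. None of the 7 passed the same exact permutation test with genotype exchanged within treatment (p from 0.145 to 0.96, adjusted p from 0.77 to 0.96).

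**Figure D3:**
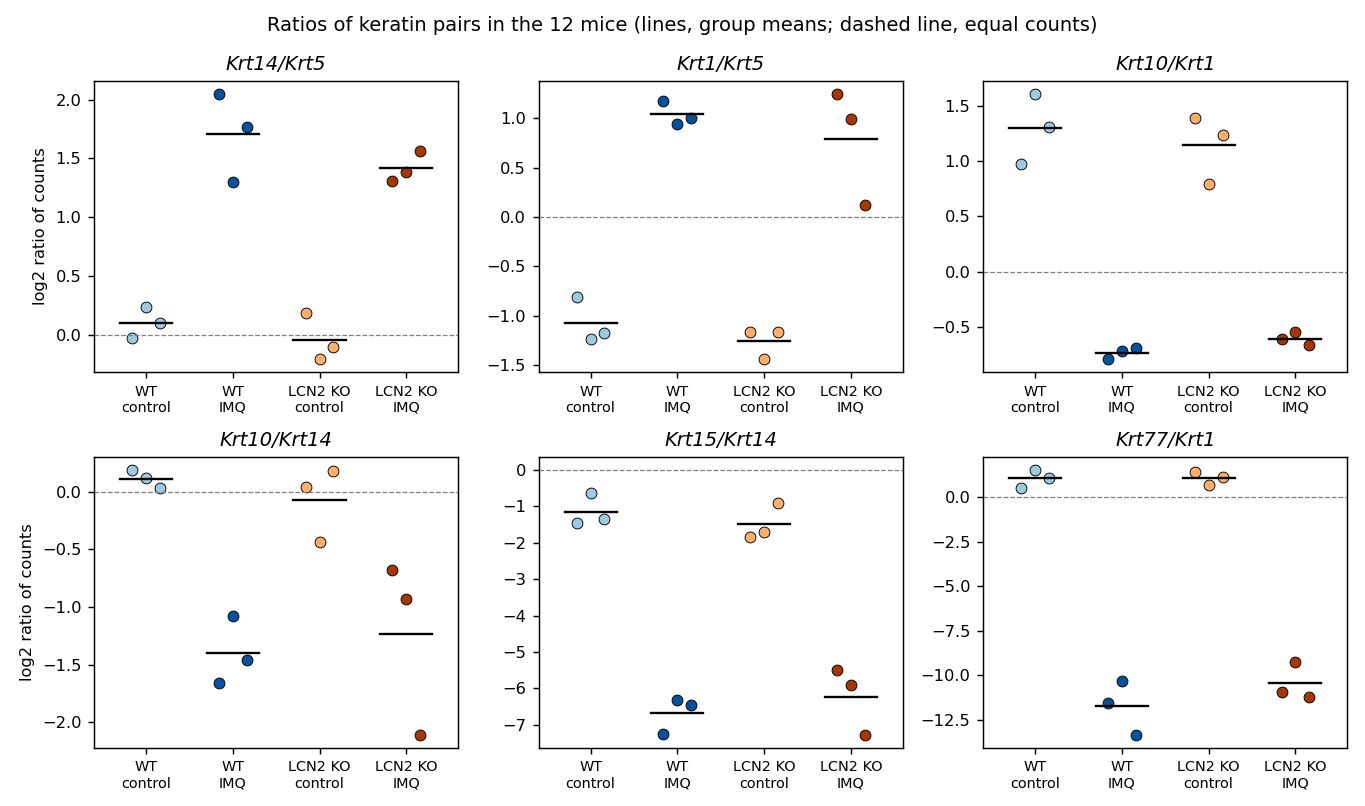
Log2 ratio of the counts of 6 pairs of keratins in each of the 12 mice, with a line at the mean of each group and a dashed line where both have equal counts. In all 6 pairs the IMQ and control mice of each genotype lie apart, with *Krt14*/*Krt5* and *Krt1*/*Krt5* higher and the other 4 pairs lower after IMQ.

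The order of the keratins by level, compared as CPM per kilobase of the main transcript, changed with IMQ. In WT control skin the first 7 were *Krt14* (840 ± 233 CPM per kilobase, SD, n = 3), *Krt10* (731 ± 165), *Krt5* (607 ± 178), *Krt79* (555 ± 198), *Krt77* (448 ± 111), *Krt15* (379 ± 98.9) and *Krt1* (260 ± 79.6), and neighbours among these 7 overlapped over the 3 mice. *Krt80* (64.3 ± 12.5), *Krt78* (8.35 ± 1.46) and *Krt2* (0.39 ± 0.041) followed without overlap. In WT IMQ skin *Krt14* (8295 ± 2126 CPM per kilobase, SD, n = 3), *Krt1* (3544 ± 305), *Krt10* (2499 ± 195) and *Krt5* (1921 ± 94.6) led without overlap among neighbours, and *Krt77* (1.15 ± 0.90) had gone from the fifth to the ninth place. With the length of all exons in place of the main transcript, an alternative chosen after seeing the data, *Krt10* stood above *Krt1* and *Krt78* above *Krt80* in WT IMQ skin, and *Krt79* stood sixth in WT control skin, below *Krt77* and *Krt15*.

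Over all 54 keratin genes of the table, keratins made up 0.77% to 1.43% of counts in WT control mice and 3.41% to 5.18% in WT IMQ mice. In the mice labelled LCN2 KO they made up 0.87% to 1.99% without IMQ and 2.07% to 2.98% with it. *Krt77* held 9.48% to 16.1% of the keratin counts of WT control mice and at most 0.016% of those of WT IMQ mice, whereas *Krt14* went from 11.2% to 15.4% up to 26.6% to 30.4%. *Krt1* went from 5.50% to 6.51% up to 16.6% to 20.9%. Much of the remainder after IMQ was the stress group *Krt6a*, *Krt6b*, *Krt16* and *Krt17*, at 24.7% to 34.3% of keratin counts in WT IMQ mice. In the control mice the remainder varied widely with 21 hair and root sheath keratins, whose summed level ran from 16.1 to 2843 CPM in WT and from 215 to 9594 CPM in the mice labelled LCN2 KO. In control mouse 2 labelled LCN2 KO the 10 epidermal keratins made up 38.1% of the keratin counts.

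**Figure D4:**
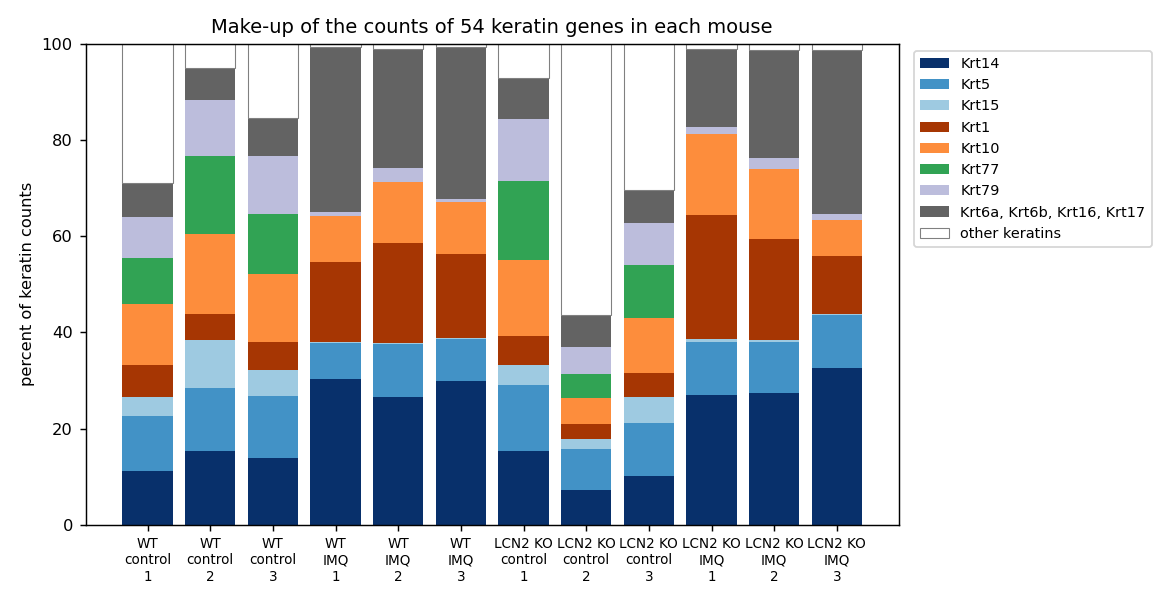
Percent of the counts of 54 keratin genes taken by each keratin in each mouse, as stacked bars, with the stress keratins in grey and all others in white. The *Krt77* share (green) is seen only in the control mice, and the white share of hair keratins is largest in control mouse 2 labelled LCN2 KO.

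Neighbouring genes of the type II cluster moved in opposite directions. *Krt1* rose and lies 7.94 kilobases from *Krt77* and 27.3 kilobases from *Krt2*, which both fell. *Krt78*, which rose, lies 5.68 kilobases from *Krt79*, which had negative log2 fold changes in both genotypes. On chromosome 11, *Krt15* and *Krt14*, 67.2 kilobases apart, also went apart. Of the 24 tested keratin genes of the chromosome 15 cluster, 6 were higher and 4 lower in WT, and of the 23 of chromosome 11, 3 were higher and 6 lower. In the mice labelled LCN2 KO 5 were higher and 14 lower on chromosome 15 and 3 higher and 16 lower on chromosome 11. Of those lower, 20 are on the list of hair and root sheath keratins, whose control levels varied as given above. *Krt75* and *Krt87*, which are not on that list, were also called lower in that genotype. The number of listed hair and root sheath keratins called lower was 12 and 13 without control mouse 2 and control mouse 3 labelled LCN2 KO, 6, 6 and 5 without IMQ mouse 1, 2 and 3 of that genotype, and 6 with no filter on low counts.

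**Figure D5:**
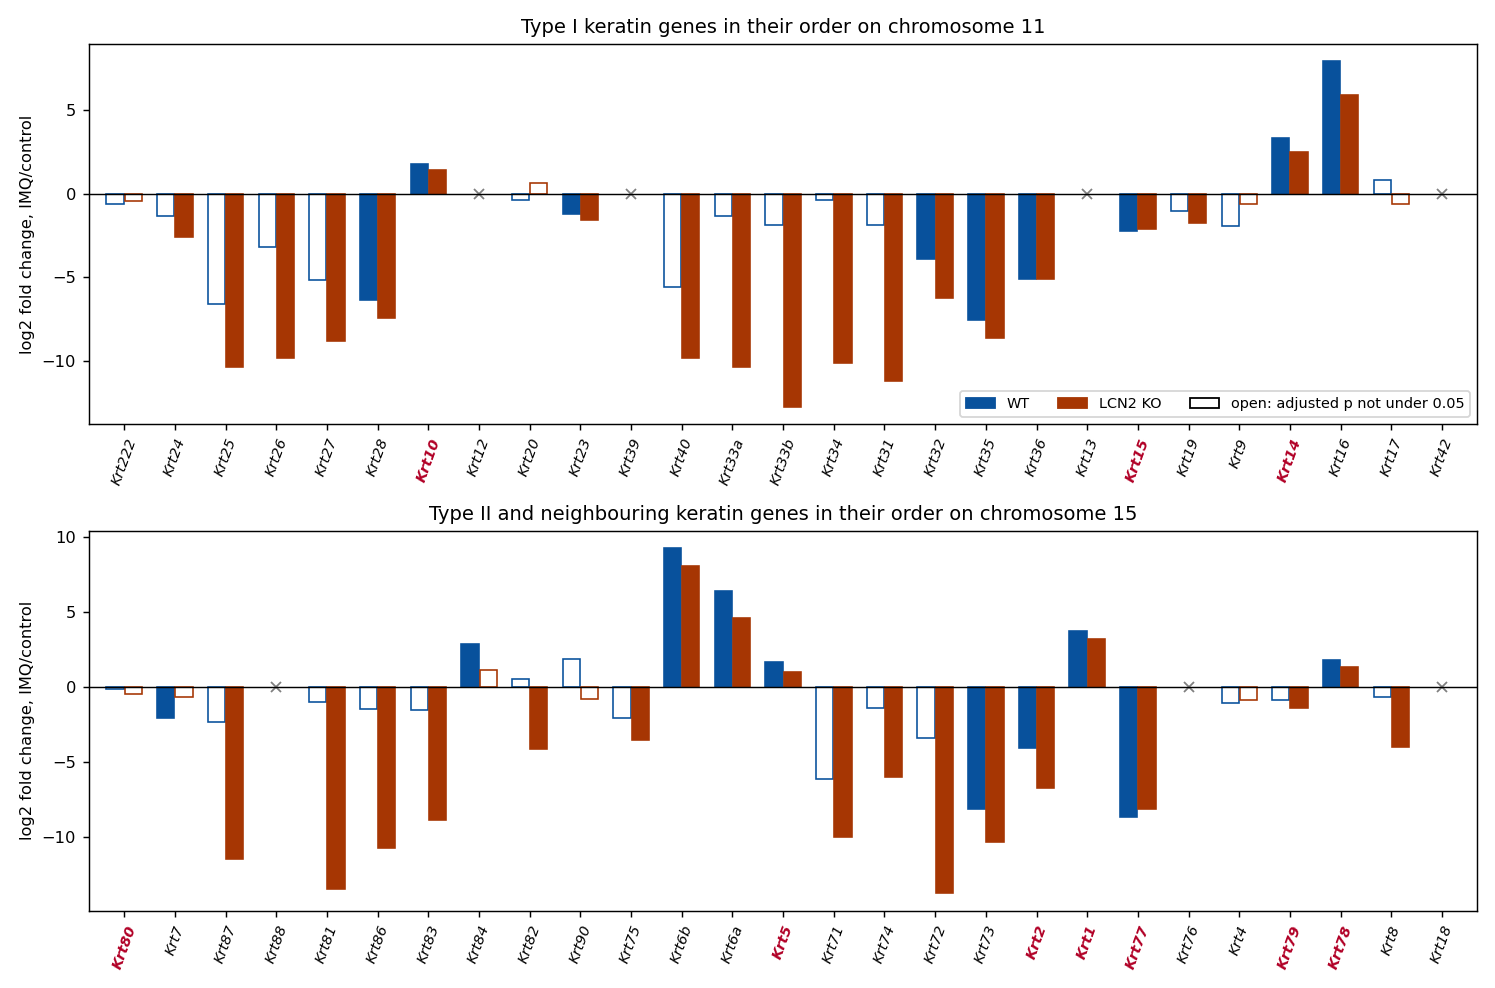
Log2 fold change of IMQ against control for the keratin genes in their order along chromosomes 11 and 15, in WT (blue) and in mice labelled LCN2 KO (brown), with open bars where the adjusted p was not under 0.05, crosses for genes not tested and the 10 epidermal keratins in bold red. *Krt1* stands up between *Krt2* and *Krt77*, which point down. Fitted values of genes near 0 counts, such as many hair keratins, depend on the prior count.

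Between the IMQ mice of the genotypes, none of the 10 keratins was called, where 2.19% of all genes tested were higher and 2.6% lower in the mice labelled LCN2 KO. With *Krt2* left out, since both groups were at or under the floor, 8 of 9 keratins had negative log2 fold changes and 1, *Krt77*, a positive one, with a median of -0.59 against -0.02 over all genes tested. By edgeR's unadjusted p, 2 of the 10 keratins were under 0.05, as were 4999 of all 18529 genes tested. For *Krt14* the log2 value was -0.92 (SE 0.24, unadjusted p = 0.0025, adjusted p = 0.0509, edgeR) and for *Krt5* it was -0.59 (SE 0.23, unadjusted p = 0.0226, adjusted p = 0.124, edgeR). These were also the 2 keratins whose IMQ groups did not overlap, in a comparison in which 17.3% of all genes were lower without overlap. The adjusted p of *Krt14* was under 0.05 with DESeq2 on all 12 mice (0.00438), with no filter on low counts (0.0313), with at least 10 counts in every library (0.0434), with the 6 IMQ mice alone (0.0488) and without WT IMQ mouse 2 (0.0131), and it reached 0.0658 over the other settings and 0.211 with another mouse left out. The log2 value of *Krt1* was -0.73 (SE 0.34, adjusted p = 0.187, edgeR) and that of *Krt10* was -0.60 (SE 0.33, adjusted p = 0.26, edgeR). *Krt15*, *Krt77*, *Krt78*, *Krt79* and *Krt80* had log2 fold changes from -0.62 to 0.42 with adjusted p of at least 0.342 (edgeR).

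Markers of other cell types moved with this comparison. Fibroblast markers were higher in the IMQ skin labelled LCN2 KO than in WT IMQ skin: all 16 listed genes had positive log2 fold changes, with a median of 0.72, and 7 of them passed edgeR's test (13 with DESeq2). Without WT IMQ mouse 2 the number was 11, and without any 1 of the other 5 IMQ mice it was 0. Their summed level was 13380 to 14184 CPM in WT IMQ mice and 25050 to 26453 CPM in IMQ mice labelled LCN2 KO, and 13190 to 20808 and 14043 to 15482 CPM in the controls. After IMQ 7 of the 16 fell in WT (3 without control mouse 1, IMQ mouse 1 or IMQ mouse 3, and 4 without IMQ mouse 2) and 8 of the 16 rose in the mice labelled LCN2 KO (5 without control mouse 3 or IMQ mouse 3). *Col1a1*, the main collagen of the dermis, averaged 1938 ± 123 CPM (SD, n = 3) with IMQ in WT, against 4543 ± 280 CPM in the other genotype. Adipocyte markers had positive log2 fold changes in 10 of 10 genes, with a median of 0.70 and summed levels of 2011 to 4464 CPM in WT IMQ mice and 4030 to 5508 CPM in IMQ mice labelled LCN2 KO. None passed edgeR's test (5 had an unadjusted p under 0.05), DESeq2 called 3, and edgeR called 7 without WT IMQ mouse 2. Macrophage and dendritic cell markers were positive in 8 of 8 genes, with a median of 0.73 and sums of 1359 to 2257 against 2510 to 3153 CPM. Of these 1 passed the test, and none did without any 1 of the IMQ mice other than WT IMQ mouse 2. Skeletal muscle markers moved with IMQ itself: their sum went from 14299 to 15108 CPM in WT control mice to 6726 to 8555 CPM in WT IMQ mice, where 6 of 10 fell and 1 rose, and from 7201 to 13249 CPM to 7263 to 10810 CPM in the mice labelled LCN2 KO. The part of these markers in the levels of *Krt14*, *Krt5* and the other keratins was not tested.

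The control mice of the genotypes were compared for the level of the keratins without IMQ. None of the 10 was called by edgeR, against 0.0108% of all genes called in either direction. None had an unadjusted p under 0.05, against 1223 of all 18529 genes tested (edgeR). DESeq2 called none of the 10 and 114 of all genes. The log2 fold changes lay between -0.64 for *Krt2*, at 12 to 24 counts, and 0.16 for *Krt78*. Whether the response to IMQ differed by genotype was tested as the interaction in the same model. The interaction called 2.15% of all genes and none of the 10 keratins, and DESeq2 called 2092 genes and none of the 10. *Krt14* had a log2 difference of -0.81 (SE 0.34, unadjusted p = 0.034, adjusted p = 0.173, edgeR) and was the only one of the 10 with an unadjusted p under 0.05. Of all 18529 genes tested, 4470 had an unadjusted p under 0.05 for the interaction (edgeR). With *Krt2* left out, 7 of 9 responses were lower by sign in the mice labelled LCN2 KO. The median difference was -0.51, against -0.02 over all genes tested, in a comparison that shares its mice with those above.

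Genes that work with these keratins were followed by lists chosen by function. Hemidesmosomes, which tie the *Krt5* and *Krt14* filaments of basal cells to the basement membrane, rose in part: 8 of 10 listed genes were higher in WT (median log2 fold change 1.09) and 5 of 10 in the mice labelled LCN2 KO (0.56), and the others passed no test. In that genotype the number was 3 without control mouse 1 or IMQ mouse 3 or with no filter on low counts, and 2 with total counts and no scaling factor. *Itga3*, an integrin subunit that binds laminin, had a log2 fold change of 1.81 in WT. Of 15 desmosome genes, which anchor keratin filaments at cell borders, 11 were higher and 1 lower in WT (median 1.23), and 5 were higher and 2 lower in the mice labelled LCN2 KO (0.47). In that genotype 3 were higher without control mouse 1, control mouse 3 or IMQ mouse 3 or with total counts, and 2 without IMQ mouse 1. *Dsg3*, a desmoglein of the lower layers, was 2.60 higher on the log2 scale in WT and, between the IMQ mice, 1.09 lower on that scale in those labelled LCN2 KO (log2 fold change -1.09, SE 0.27, adjusted p = 0.0465, edgeR). This last call was lost with no filter on low counts, with total counts and without any 1 of the IMQ mice other than WT IMQ mouse 2, with adjusted p up to 0.197. *Pkp2*, a plakophilin best known from the heart, was the 1 desmosome gene that fell in WT, with a log2 fold change of -1.20, and no desmosome gene was called lower there without control mouse 1, control mouse 3 or any 1 WT IMQ mouse.

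Of 23 genes of the granular layer and cornified envelope, the stage after *Krt1* and *Krt10*, 18 were higher and 2 lower in WT (median 1.84) and 16 higher and 3 lower in the mice labelled LCN2 KO (median 1.26). *Sprr2d* and *Sprr1b*, cross-linked proteins of the envelope, had log2 fold changes of 9.36 and 7.09 in WT. *Flg2* and *Sprr4* fell, with log2 fold changes of -2.77 and -2.28 in WT. Of 19 regulators of the epidermis, 7 were higher in WT and the others were not called, and 7 were higher and 2 lower in the mice labelled LCN2 KO (0 to 2 lower with a mouse left out). Between the IMQ mice, 5 of the 19 were lower in those labelled LCN2 KO, among them *Grhl3* (log2 fold change -0.90, SE 0.19, adjusted p = 0.0328, edgeR), a factor of barrier formation, and *Trp63* (-0.85, SE 0.19, adjusted p = 0.0353, edgeR), the factor that maintains basal cells. *Klf5* and *Klf4*, factors of basal growth and of late differentiation, had log2 fold changes of -0.76 and -0.54 there. None of the 19 was called without WT IMQ mouse 1, WT IMQ mouse 3 or any 1 of the IMQ mice labelled LCN2 KO, where the adjusted p of *Grhl3* reached 0.166 and that of *Trp63* 0.164 (edgeR). Of 12 genes of S phase and mitosis, 0 passed edgeR's test in WT after IMQ, where 0 had an unadjusted p under 0.05 and DESeq2 called 0, and 1 was lower in the mice labelled LCN2 KO. Without WT control mouse 2, 2 were lower in WT, and in the other genotype none was without control mouse 2, IMQ mouse 1 or IMQ mouse 3, and 6 were with the compared mice alone. The summed level of these 12 genes varied among the controls, from 445 to 1412 CPM in WT control mice against 803 to 1045 CPM in WT IMQ mice. In the mice labelled LCN2 KO the sum ran from 936 to 1514 CPM without IMQ and from 643 to 715 CPM with it.

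Over the 12 mice, genes whose log2 CPM most closely followed that of a keratin were found by Pearson correlation, given without a test because the 12 mice share the treatment that moves most of them. *Krt5* was closest to *Ckmt1* (r = 0.996, n = 12 mice), a mitochondrial creatine kinase, and *Krt15* to *Slc2a12* (0.970), a glucose transporter. *Krt1* was closest to *Flg* (0.991), the filaggrin gene of the granular layer, *Krt10* to *Mgst2* (0.971) and *Krt78* to *Dmkn* (0.982), the dermokine gene of the upper epidermis. *Krt77* was closest to *Serpinb6e* (0.993) and *Scd3* (0.992), *Krt79* to *Faah* (0.963), *Krt2* to *Gm30931* (0.969), and *Krt80* to *Il22ra2* (0.870). Among the keratins themselves, *Krt5*, *Krt14*, *Krt1*, *Krt10* and *Krt78* had pairwise r from 0.915 to 0.978, and *Krt77* and *Krt14* had r = -0.963.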

How the data were processed

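Skin RNA of 12 mice was sequenced as paired reads of 150 bp after removal of ribosomal RNA. The authors deposited raw counts of reads per Ensembl gene in a single table, 56923 genes by 12 libraries. HISAT and mm8 appear in the submitters' processing notes, and the counting tool, its strand setting and its annotation are not given in the sources used here. GENCODE M21 (GRCm38) supplied names and positions for 52073 of the identifiers (91.5%), and the unmatched genes hold 0.567% of the counts.

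Libraries were scaled by TMM. Tests used edgeR 4.0.16 (limma 3.58.1, R 4.3.3) with robust quasi-likelihood fits on 18529 genes kept by filterByExpr (at least 10 counts, 15 in total), with 1 mean for each of 4 groups. The 5 contrasts were IMQ against control in each genotype, genotype within IMQ and within control, and the interaction, each with Benjamini-Hochberg adjustment over all genes. CPM were computed on the scaled library sizes, where 3 counts, used as the floor, equal 0.0985 to 0.202 CPM. That floor covers counting error only, since no molecular identifiers were used. The 7 keratin ratios were tested by exact permutation. The keratins and the gene lists were chosen with earlier results of these data known. Other genes named are, of each list, those with the largest and smallest fold change among those called (at most 4 a list), and for each keratin those with the highest Pearson correlation of log2 CPM. Some genes that this rule names are not reported here.

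Mice are numbered 1 to 3 in each group by the sample labels, and p-values measure the spread between these mice. The counts of mice of 1 group differed by more than sampling noise. Alternatives were 3 other scalings, DESeq2 1.42.0, 2 other filters, the compared mice alone, the replicate number as a block, a rule of a fold above 2 with unadjusted p under 0.05, 10 added to the counts of ratios, and each mouse left out in turn. The scripts were tested on simulated data. Figures were drawn with matplotlib 3.10.9.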

Additional observations from a re-analysis of the deposited data

How the results depend on the processing

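Under every alternative that could be fitted, the 5 keratins that rose and the 3 that fell in both genotypes kept their direction and an adjusted p under 0.05. *Krt2* has no value with at least 10 counts in every library, or from the compared mice labelled LCN2 KO alone, where the filter removes it. In the other filtered fits it passed through the control mice only. *Krt2* in WT had a log2 fold change of -7.34 without WT IMQ mouse 3, the only IMQ library with a read of it. All 7 ratios between IMQ and control kept their direction, with exact permutation p of at most 0.0312. The ratios that set a fallen keratin against a risen keratin follow from their levels, as said above. For *Krt2* relative to *Krt1* the size is set by what is added to counts of 0, with a log2 difference of -7.78 with 0.5 and -4.47 with 10. In simulated data with the same spread for all genes, edgeR's test found 31 of 100 genes changed 2-fold and 97 of 100 changed 4-fold. The simulation changed only these genes among 18529, for IMQ in WT. Many more genes were called in the data, and genes differ in spread and level. These shares therefore do not carry over to the keratins or to the genotype comparisons. Which differences between the genotypes could be detected with 3 mice a group was not tested.

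Between the IMQ mice of the genotypes, 1 keratin (*Krt14*) was called with DESeq2, with no filter, with at least 10 counts in every library and with the compared mice alone, and 0 to 1 with a mouse left out. The count of all genes called there was 2650 with DESeq2, 1894 with the compared mice alone and 0 to 2726 with a mouse left out, the extremes without WT IMQ mouse 1 and without WT IMQ mouse 2. Between the controls it was 114 with DESeq2, 6 with no filter, 0 with the compared mice alone, 422 by a fold above 2 with unadjusted p under 0.05 and 0 to 32 with a mouse left out. For the interaction it was 2092 with DESeq2, 2031 by that rule and 2 to 1927 with a mouse left out. For IMQ in WT it was 3371 by that rule and 3289 to 5662 with a mouse left out, and in the mice labelled LCN2 KO it was 2747 to 4288. The cause of these changes was not tested.

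With a mouse left out, uncalled values changed sign. For *Krt80* in WT after IMQ the log2 fold change ran from -0.31 to 0.021. Between the IMQ mice it ran from -0.87 to 0.082 for *Krt15*, -0.26 to 1.19 for *Krt77*, -0.95 to 0.074 for *Krt79* and -0.30 to 0.039 for *Krt80*. Between the controls it ran from -0.36 to 0.011 for *Krt1*, -0.22 to 0.14 for *Krt14*, -0.11 to 0.29 for *Krt5*, -0.23 to 0.13 for *Krt77*, -0.057 to 0.35 for *Krt78* and -0.23 to 0.24 for *Krt79*. The interaction ran from -0.50 to 0.48 for *Krt15*, -3.17 to 0.64 for *Krt2*, -0.17 to 1.28 for *Krt77* and -0.86 to 0.16 for *Krt79*. The genotype difference of the log2 ratios ran from -0.094 to 0.074 for *Krt10*/*Krt1*, -0.15 to 0.20 for *Krt10*/*Krt14*, -0.13 to 0.32 for *Krt15*/*Krt14*, -0.55 to 0.0887 for *Krt2*/*Krt1* (0.20 with 10 added to the counts) and -0.32 to -0.13 for *Krt14*/*Krt5*, which passed the exact permutation test without WT IMQ mouse 2 (p = 0.03).

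The mice of different groups share a number only. To compare them, the mean of its group was first subtracted from the log CPM of each mouse. The correlation of these deviations between same-numbered mice ran from -0.555 to 0.199 over the 4 comparisons of groups. The deviations of a group sum to 0 for each gene, so these values depend on each other and are not correlations of whole libraries. By these values each mouse correlated best with its own number in 6 of 6 mice between the IMQ groups, though those correlations were only 0.0284 to 0.0875. The count was 4 of 6 for IMQ in WT and 0 of 6 in the other comparisons. When the number entered the fit as a replicate block, 4404 genes passed for IMQ in WT, 3722 in the mice labelled LCN2 KO, 136 between the IMQ mice, 0 between the controls and 10 for the interaction, and the same keratins were called. Between the IMQ mice, 0 epidermal regulators and 4 fibroblast markers were then called, and the adjusted p of *Dsg3* was 0.0613.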
